A study of Rattus with 27 samples.

Results

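The genes described here encode the subunits of the receptors for glutamate and gamma-aminobutyric acid (GABA), the main excitatory and the main inhibitory transmitters of the mammalian brain. They were chosen by symbol from the array's probe table, keeping probes that name a single gene and, where a gene had several, the probe with the highest mean over all arrays. The rule found 42 genes of the 14506 genes measured this way. They are the 4 AMPA receptor subunits (Gria1 to Gria4), 7 NMDA receptor subunits (Grin), 5 kainate receptor subunits (Grik), the delta receptor subunit Grid1, 7 metabotropic glutamate receptors (Grm), 16 GABA-A receptor subunits (Gabra, Gabrb, Gabrg and the less common delta, epsilon, pi, theta and rho subunits) and both GABA-B receptor subunits (Gabbr1 and Gabbr2).

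The samples came from 9 Sprague Dawley rats in a model of ischaemic stroke, each of which gave 3 arrays, 1 of brain, 1 of white blood cells and 1 of spleen, taken at 6 h. In each tissue 3 arrays carry the label model, 3 the label vehicle and 3 the label sham. Per the treatment protocol all rats except the sham rats underwent middle cerebral artery occlusion (MCAO), which blocks the main artery of a hemisphere, while sham rats had only the anaesthesia and the exposure of the vessels, and 1 of the operated groups received YJ, a herbal formula, at 25 mg/kg. The labels do not settle which of the operated groups that was, so the groups are called model-labelled and vehicle-labelled, and their mean, called the MCAO mean below, holds part of any effect of YJ.

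Fast excitation in the brain runs through the ionotropic glutamate receptors: AMPA receptors carry most of the fast current, NMDA receptors pass calcium when glutamate and depolarization coincide, and kainate receptors tune both release and excitability. Metabotropic glutamate receptors act through G proteins, GABA-A receptors are chloride channels of 5 subunits whose mixture sets where and how long they open, and GABA-B receptors are G protein-coupled pairs of both their subunits. In ischaemia glutamate accumulates outside cells, and the calcium that enters through its receptors is a textbook route of neuronal injury.

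All values are array intensities after RMA, on a scale read as log2 from the values, so that a difference of 1 is a 2-fold change. Arrays of a group correlated across genes with r between 0.968 and 0.995, and array medians lay between 4.96 and 5.31. The tissue labels fit the markers: Snap25, a general neuron marker, for example, lay between 11.72 and 12.47 in the 9 brain arrays. It averaged 3.83 in white blood cells and 3.65 in spleen. Slc17a7, the vesicular glutamate transporter of cortical neurons, averaged 9.83 in brain, 4.49 in white blood cells and 4.34 in spleen. In brain it had only 7.28 in vehicle-labelled rat 2 and 5.10 in sham rat 5. A pair of brain arrays, vehicle-labelled rat 2 and sham rat 5, stood apart from the other 7 in the mean of the cortical neuron markers. The mean of 7 cortical neuron markers, set against its average over all 9 brain arrays, was -1.35 in vehicle-labelled rat 2 and -1.88 in sham rat 5, against 0.13 to 0.71 in the other brain arrays. Cux1, at 7.04 and 7.05 in these arrays, was not lowered. Nrn1 had 9.18 in vehicle-labelled rat 2, against 9.23 and 9.47 in its group-mates. Sham rat 5 also had the mean of the hypothalamic and thalamic markers high, at 1.88 for 15 genes, against -0.53 to 0.07 in the other 8 brain arrays. Single markers of this list differed. Slc17a6 was high in both arrays, at 9.03 in vehicle-labelled rat 2 and 8.96 in sham rat 5, against 4.07 to 5.86 in the other 7. Prkcd and Lhx9 were highest in vehicle-labelled rat 2, at 7.69 and 5.61. Crh and Nkx2-1, at 3.49 and 6.32 in sham rat 5, were not raised there. General neuron markers differed less, between -0.29 and 0.17 for 16 genes. Where leaving out the pair moves a brain difference named below by much, the value without it is given as well. Brain and spleen were homogenates of mixed cells, so fewer cells of a type and less RNA per cell cannot be told apart. Nor, in brain, can a different share of regions in the sample. Pmch, a hypothalamic marker, had 11.34 in sham rat 5 and 3.37 to 3.87 in the other 8 brain arrays. No label gives a batch or date. P-values measure the spread between these arrays as labelled, and the number of arrays limits their precision.

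Most of the receptor genes were brain genes in these rats. The threshold for a call was an adjusted p under 0.05 (limma, Benjamini-Hochberg over all 14506 genes). Between sham brain and sham white blood cells, 33 of the 42 genes were called higher in brain and 3 lower, against 28% and 31.1% of all genes. Between sham brain and sham spleen, 35 were called higher in brain and 2 lower, against 26.3% and 27.4% of all genes. The median difference over the 42 genes was 2.41 against white blood cells and 2.66 against spleen, while the medians over all genes were -0.12 and -0.02. Without the pair of arrays the counts against white blood cells were 32 higher and 3 lower, beside 26.8% and 27.7% of all genes, and against spleen 34 higher and 1 lower, beside 25.5% and 27.5%. Both tissue comparisons use the same sham brain arrays. Whether the authors normalized the tissues together is not stated.

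The largest difference against white blood cells was that of Gria2, the AMPA subunit whose editing keeps calcium out of the channel. Gria2 had 9.34, 9.33 and 8.63 in sham brain, against 3.18, 3.23 and 3.08 in sham white blood cells and 3.21, 3.29 and 3.49 in sham spleen. The tissues were far apart, by 5.94 ± 0.18 (standard error) against white blood cells and 5.77 ± 0.18 against spleen, with adjusted p of 8.2e-19 and 1.9e-18. Gabra2, a GABA-A alpha subunit of the axon initial segment and of many synapses, had 8.53, 9.0 and 8.93 in sham brain, against 3.21, 3.06 and 2.77 in white blood cells and 2.95, 2.90 and 2.73 in spleen. The differences were 5.81 ± 0.18 and 5.96 ± 0.18, the second being the largest of the 42 genes against spleen. Next came Gabrg1, a gamma subunit of the GABA-A receptor, at 5.63 and 5.80, Gabra3, an alpha subunit, at 5.57 and 5.68, Gabrb2, a beta subunit of the most common GABA-A receptors, at 5.21 and 5.44, and Gria1, the AMPA subunit moved in and out of synapses in plasticity, at 4.90 and 5.26 against white blood cells and spleen.

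**Figure D1:**
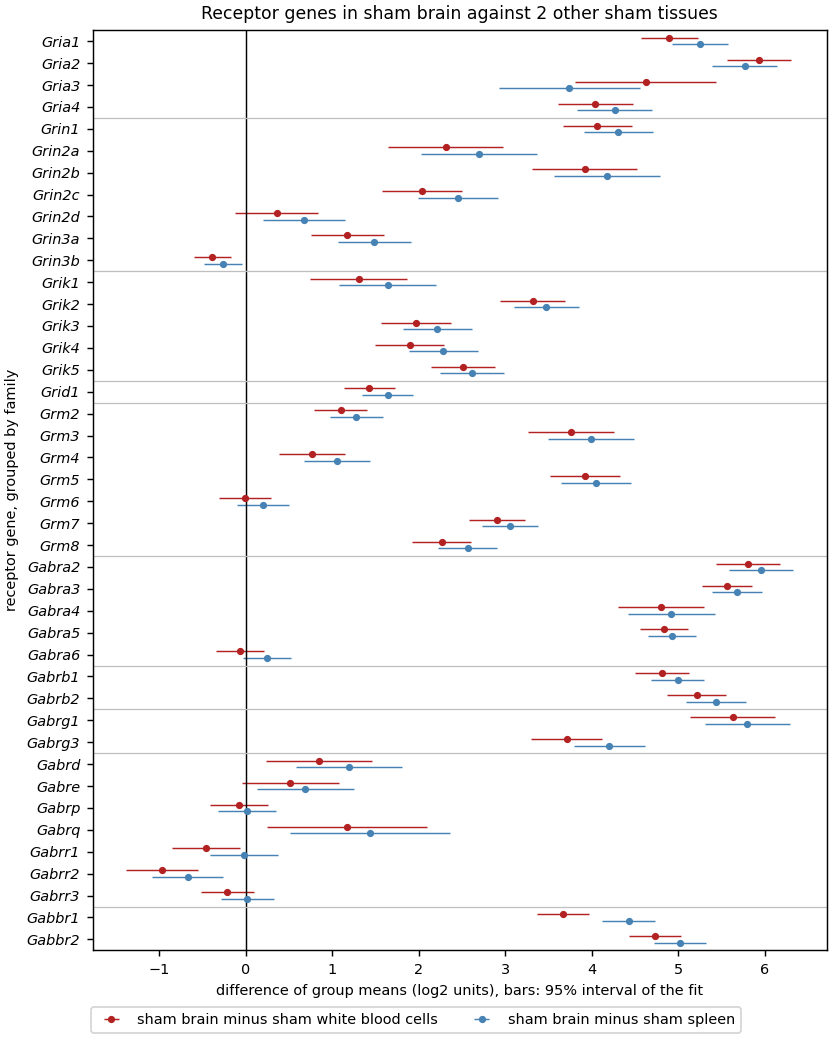
Differences of the 42 receptor genes between sham brain and sham white blood cells (red) or sham spleen (blue), in log2 units on the x axis, with genes down the y axis by family and bars for the 95% interval of the fit (n = 3 arrays per tissue). Points of 33 genes in red and 35 in blue were called above 0, and the rho subunits, Grin3b, Grm6, Gabra6 and Gabrp lie near or below it.

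The families differed in how evenly their members were above the other tissues. All 4 AMPA subunits, all 5 kainate subunits, both measured beta, both measured gamma and both GABA-B subunits were called higher in brain against both tissues, as was Grid1. Of the alpha subunits 4 of 5 were, the exception being Gabra6, the subunit of cerebellar granule cells, which had 3.53, 3.34 and 3.20 in sham brain, 3.64, 3.30 and 3.34 in white blood cells and 3.21, 3.06 and 3.07 in spleen. Those values overlap in brain and white blood cells, and the difference was -0.07 ± 0.13 against white blood cells and 0.24 ± 0.13 against spleen, neither of them called. Of the metabotropic receptors 6 of 7 were called higher in brain against both tissues, and Grm6, the receptor of retinal ON bipolar cells, was not, with differences of -0.01 and 0.20. Among the NMDA subunits Grin1, the obligatory subunit, was 4.07 and 4.31 higher, and Grin2b, the subunit that dominates in early life, 3.92 and 4.18 higher. Grin2d, a subunit of the diencephalon and brainstem, was called against spleen at 0.67 but not against white blood cells at 0.36.

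Grin3b, an NMDA subunit of motor neurons, was lower in sham brain than in both other tissues. It had 3.82, 3.89 and 3.72 in sham brain, against 4.24, 4.32 and 4.03 in white blood cells and 4.13, 4.06 and 4.03 in spleen, so that the brain arrays lay below all others. The differences were -0.39 (adjusted p = 0.0027) and -0.26 (adjusted p = 0.037), and the second was not called without the pair of arrays, at -0.22 with an adjusted p of 0.133. Gabrr2, a rho subunit known from the retina, had 4.28, 4.76 and 4.19 in sham brain, against 5.46, 5.55 and 5.13 in white blood cells and 5.16, 5.04 and 5.05 in spleen. It was lower in brain by both tests, at -0.97 and -0.67, and remained so without the pair at -0.86 and -0.56. Gabrr1, the rho subunit first found in retina, was called lower against white blood cells at -0.46 but not against spleen at -0.02. Gabrr3, the remaining rho subunit, and Gabrp, the pi subunit, were not called in either direction, with differences between -0.22 and 0.02. There were no detection calls, so these values do not show whether such genes were expressed in any of the tissues.

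Sham rat 5 set much of the tissue difference of Gabrq and Gabre. Gabrq, the theta subunit, found mainly in hypothalamic and brainstem neurons, had 3.22, 3.52 and 6.49 in sham brain, against 3.34, 3.14 and 3.23 in white blood cells and 3.08, 2.96 and 2.88 in spleen. Sham rat 5 was far above the other sham brains, and the difference of 1.17 against white blood cells became 0.13 without the pair and was no longer called, while that of 1.44 against spleen became 0.40 and was called. Gabre, the epsilon subunit, encoded in the same gene cluster, had 3.37, 3.42 and 5.09 in sham brain, against 3.28, 3.23 and 3.30 in spleen, and its call against spleen at 0.69 was lost without the pair at 0.12. Gabrd, the delta subunit of extrasynaptic GABA-A receptors, was called against both tissues with and without the pair, at 0.84 and 1.19 with all arrays and 1.26 and 1.61 without it.

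In the brain, none of the 42 genes passed the test between groups. For the MCAO mean against sham limma called 0 of 42, beside 0.8% of all genes, and 2 of the 42 had an unadjusted p under 0.05. For model-labelled against sham it called 0, beside 1.16% of all genes, with 2 at an unadjusted p under 0.05. For vehicle-labelled against sham it called 0, beside 0.0483%, with 1 at an unadjusted p under 0.05, and for vehicle-labelled against model-labelled 0, beside 0.0551%, with 4. Counts at an unadjusted p, here and below, are given without the share of all genes, so no change of the receptor genes is read from them. The median differences over the 42 genes were 0.00, 0.07, -0.04 and -0.10 in the same order, next to 0.02, 0.03, 0.01 and -0.01 over all genes. Groups that did not overlap were found for 1 gene between MCAO and sham arrays, against 4.58% of all genes, for 9 genes between model-labelled and sham arrays, against 20.1%, for 3 between vehicle-labelled and sham arrays, against 13.4%, and for 4 between vehicle-labelled and model-labelled arrays, against 21.5%. As shares of 42 these are 2.38%, 21.4%, 7.14% and 9.52%, near or below those of all genes. The comparisons share sham or model-labelled arrays.

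These counts say more about large than about small differences. The 95% interval of the fit lay within 1 log2 unit on both sides of 0 for 33 of the 42 genes in the comparison of the MCAO mean with sham, for 32 in each of the comparisons of one operated group with sham, and for 34 between vehicle-labelled and model-labelled brains. It lay within 0.5 units for 11, 5, 3 and 8 genes. The standard error had a median of 0.21 over the 42 genes for the MCAO mean against sham, while its median over all genes was 0.13. A miss in these tests therefore does not show that a receptor gene kept its level.

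**Figure D2:**
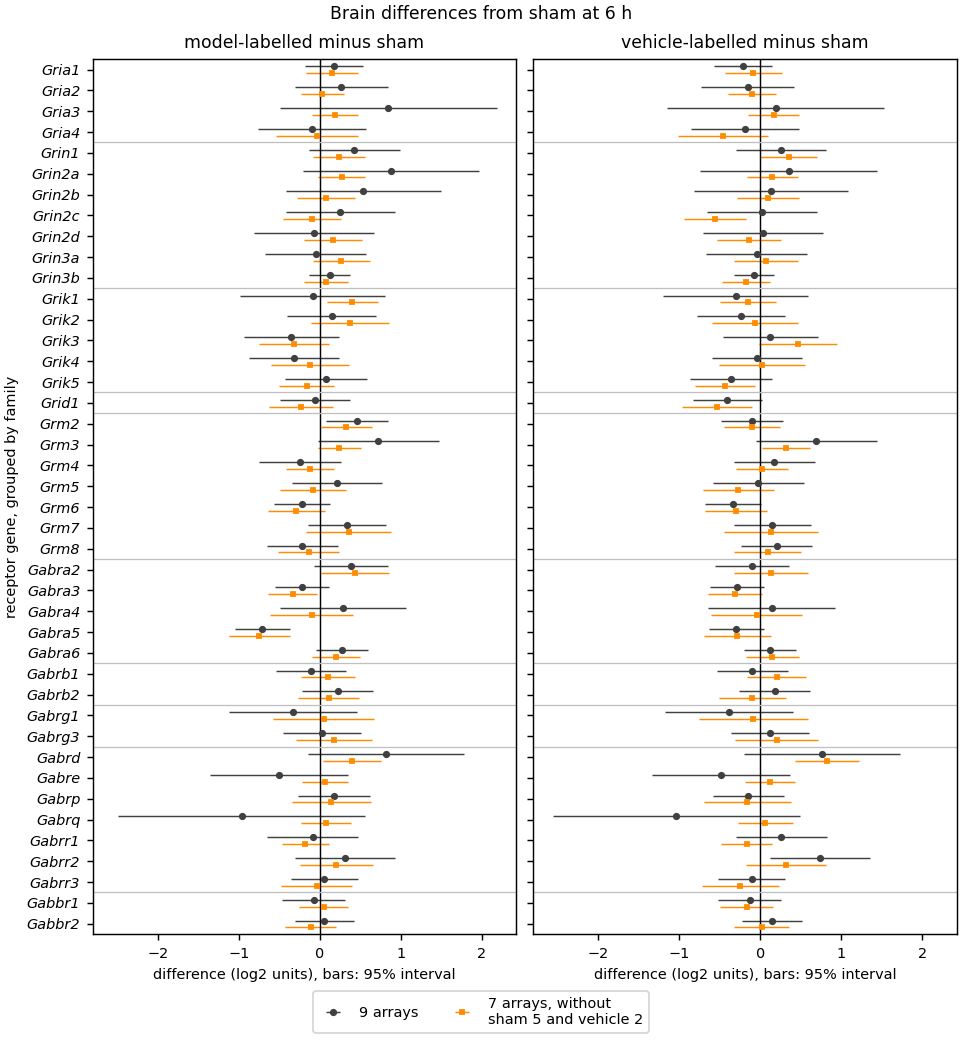
Differences of the 42 receptor genes from sham in brain at 6 h, for the model-labelled group (left) and the vehicle-labelled group (right), in log2 units on the x axis with 95% intervals. Grey points use all 9 brain arrays and orange points the 7 arrays left without sham rat 5 and vehicle-labelled rat 2; the intervals of Gria3, Grin2a, Gabrq and Gabre are far narrower without the pair, and Gabra5 lies left of 0 in the model-labelled group in both.

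The gene closest to a call was Gabra5, the alpha subunit of extrasynaptic GABA-A receptors in hippocampus and deep cortex. It had 8.20, 8.02 and 7.60 in model-labelled brains, 8.26, 8.41 and 8.40 in vehicle-labelled brains and 8.67, 8.71 and 8.58 in sham brains. All 3 model-labelled arrays lay below all vehicle-labelled arrays, which in turn lay below all sham arrays, and neither array of the deviating pair was far from its group here. Model-labelled brains averaged 7.94 ± 0.31 and sham brains 8.65 ± 0.07 (SD, n = 3 each), a difference of -0.71 ± 0.15 with an adjusted p of 0.0644. For the MCAO mean the difference from sham was -0.51 ± 0.13 (adjusted p = 0.164), and for the vehicle-labelled group -0.30 ± 0.15 (adjusted p = 0.605). Vehicle-labelled against model-labelled brains differed by 0.42 ± 0.15 (adjusted p = 0.276). Over the alternatives tried, the adjusted p of the model-labelled difference lay between 0.00183 and 0.474. Without model-labelled rat 3, which was lowest, the difference was -0.54. That array also had the highest mean of 9 choroid plexus markers, at 1.41 against -0.49 to 0.32 in the other brain arrays. Its mean of 10 striatal markers was highest too, at 0.96 against -0.61 to 0.68. Not every marker was raised there, as Kcne2 had 4.91. The part of these lists in Gabra5 was not tested.

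Gabra5 was the only one of the 5 alpha subunits with an unadjusted p under 0.05 against sham. Gabra2 had 9.02, 9.40 and 9.18 in model-labelled brains, 8.36, 9.11 and 8.69 in vehicle-labelled brains and 8.53, 9.0 and 8.93 in sham brains. The model-labelled arrays lay above the sham arrays by a small margin, with a difference of 0.38 ± 0.20 (adjusted p = 0.429), and vehicle-labelled against model-labelled brains differed by -0.48 ± 0.20 (adjusted p = 0.331). Without the pair these differences were 0.43 and -0.30, neither of them called. Gabra3 differed from sham by -0.22 in the model-labelled and -0.29 in the vehicle-labelled group, with overlapping groups. Gabra4, the partner of the delta subunit in forebrain, varied most among the alpha subunits, with 7.82, 8.28 and 7.70 in model-labelled, 7.38, 8.25 and 7.73 in vehicle-labelled and 7.75, 8.32 and 6.87 in sham brains; both arrays of the deviating pair were the lowest of their group, and the difference of 0.29 between model-labelled and sham brains was -0.10 without them. Gabra6 lay between 3.20 and 3.78 in all 9 brain arrays.

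Gabrd gave the largest positive difference for the MCAO mean. It had 6.30, 5.81 and 6.25 in model-labelled brains, 5.11, 6.56 and 6.53 in vehicle-labelled brains and 5.64, 5.80 and 4.48 in sham brains. The low values of 5.11 and 4.48 belong to the deviating pair. The other 5 operated arrays all lay above the sham arrays, the nearest by a small margin, 5.81 against 5.80. The operated array at 5.11 lay below the sham values of 5.64 and 5.80, so with all arrays the groups overlapped. The share of all genes that separate this way without that array is not given. The MCAO mean lay 0.79 ± 0.37 above sham (adjusted p = 0.470), and the model-labelled and vehicle-labelled groups 0.81 ± 0.43 and 0.76 ± 0.43 above it. Without the pair the standard errors were smaller: the difference was 0.61 ± 0.15 for the MCAO mean (adjusted p = 0.0689), 0.40 ± 0.16 for model-labelled brains (adjusted p = 0.306) and 0.82 ± 0.18 for vehicle-labelled brains (adjusted p = 0.0516). None of these passed the threshold.

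Among the AMPA subunits the 4 differences between model-labelled and sham brains ran from -0.09 to 0.85. The widest was that of Gria3, a subunit that pairs with Gria2, which had 9.84, 9.68 and 9.77 in model-labelled brains, 7.84, 9.84 and 9.64 in vehicle-labelled brains and 9.49, 9.66 and 7.60 in sham brains. Vehicle-labelled rat 2 and sham rat 5 were each far below the rest of their group, the other 7 arrays lay between 9.49 and 9.84, and the difference of 0.85 ± 0.60 (adjusted p = 0.545) became 0.19 without the pair. Gria1 had 8.85, 8.69 and 9.05 in model-labelled brains, 8.16, 8.67 and 8.59 in vehicle-labelled brains and 8.60, 8.83 and 8.64 in sham brains. Every vehicle-labelled array was below every model-labelled one, the nearest by a small margin, and the difference of -0.39 ± 0.16 (adjusted p = 0.317) was -0.23 ± 0.14 without the pair (adjusted p = 0.457). Gria2 had 9.43, 9.27 and 9.40 in model-labelled, 8.38, 9.29 and 9.17 in vehicle-labelled and 9.34, 9.33 and 8.63 in sham brains; the difference of 0.27 between model-labelled and sham brains was 0.03 without the pair.

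The NMDA subunits showed the pair most widely: vehicle-labelled rat 2 and sham rat 5 each differed by more than 0.5 from the mean of the rest of their group in 6 of 7 subunits. Grin2a, the subunit of mature cortical NMDA receptors, had 7.76, 7.92 and 7.64 in model-labelled brains, 6.42, 7.63 and 7.68 in vehicle-labelled brains and 7.56, 7.45 and 5.67 in sham brains. All model-labelled arrays were above all sham arrays, by 0.88 ± 0.49 on average (adjusted p = 0.439), and the difference without the pair was 0.27. Grin2b had 8.07, 7.64 and 7.96 in model-labelled, 6.64, 8.06 and 7.76 in vehicle-labelled and 7.88, 7.75 and 6.43 in sham brains, and there the groups overlapped, with a difference of 0.54 between model-labelled and sham brains that was 0.07 without the pair. Grin1 had 8.50, 8.16 and 8.52 in model-labelled brains, 7.66, 8.43 and 8.58 in vehicle-labelled brains and 8.15, 8.16 and 7.59 in sham brains. Its differences from sham were 0.43 ± 0.25 and 0.26 ± 0.25, with adjusted p of 0.465 and 0.832, for model-labelled and vehicle-labelled brains, and 0.24 and 0.35 without the pair. Grin2d went the other way within the pair, with 5.86 in vehicle-labelled rat 2 against 4.65 and 4.64 in its group-mates and 5.49 in sham rat 5 against 4.96 and 4.60. Grin3b spanned only 3.61 to 4.02 over the 9 brain arrays.

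Of the kainate subunits none had an unadjusted p under 0.05 in any brain comparison with all 9 arrays. Grik1, a low-affinity subunit, had 4.46, 4.28 and 4.67 in model-labelled brains, 4.93, 4.00 and 3.83 in vehicle-labelled brains and 4.06, 4.08 and 5.53 in sham brains. Its highest values were those of the deviating pair, and without them vehicle-labelled against model-labelled brains differed by -0.56 ± 0.14 (adjusted p = 0.115). Grik3, another subunit of the same class, had 6.12, 5.48 and 5.68 in model-labelled brains, 5.62, 6.33 and 6.76 in vehicle-labelled brains and 6.10, 6.06 and 6.18 in sham brains. Vehicle-labelled against model-labelled brains differed by 0.48 ± 0.26 (adjusted p = 0.433) with all arrays and by 0.79 ± 0.20 (adjusted p = 0.108) without the pair. Grid1, a delta receptor subunit that links synapses through cerebellins, had 6.55, 6.22 and 6.76 in model-labelled, 6.08, 6.09 and 6.32 in vehicle-labelled and 6.90, 6.58 and 6.23 in sham brains. The vehicle-labelled minus sham difference was -0.41 ± 0.19 (adjusted p = 0.559), with overlapping arrays, and -0.54 ± 0.19 without the pair (adjusted p = 0.251). Grid1 was the 1 gene of the 42 with a second probe, whose means were 7.56 in model-labelled, 7.37 in vehicle-labelled and 7.75 in sham brains.

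Among the metabotropic receptors, Grm2, a presynaptic receptor that lowers glutamate release, had 6.59, 6.42 and 6.28 in model-labelled brains, 5.61, 5.86 and 6.14 in vehicle-labelled brains and 6.14, 6.07 and 5.70 in sham brains. Every model-labelled array lay above every array of the other groups. Model-labelled brains averaged 6.43 ± 0.16 and sham brains 5.97 ± 0.24 (SD, n = 3 each), a difference of 0.46 ± 0.17 (adjusted p = 0.270), and vehicle-labelled against model-labelled brains differed by -0.56 ± 0.17 (adjusted p = 0.228). Without the pair these differences were 0.33 and -0.43. Grm3, the related receptor found on astrocytes as well as neurons, had 8.22, 8.21 and 8.37 in model-labelled brains, 8.02, 8.34 and 8.34 in vehicle-labelled brains and 7.97, 8.08 and 6.58 in sham brains. Sham rat 5 alone was low, the other 8 arrays lay between 7.97 and 8.37, and the MCAO mean was 0.71 ± 0.29 above sham (adjusted p = 0.395), or 0.28 ± 0.11 without the pair (adjusted p = 0.314).

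Grm5, the postsynaptic receptor coupled to calcium release, had 7.59, 7.53 and 8.10 in model-labelled, 7.41, 7.64 and 7.47 in vehicle-labelled and 7.95, 7.70 and 6.94 in sham brains. Grm4 and Grm8, presynaptic receptors of the group that also holds Grm6, were each 0.42 higher in vehicle-labelled than in model-labelled brains, with adjusted p of 0.418 and 0.368, and 0.14 and 0.23 higher without the pair. The model-labelled arrays of each lay below all its sham arrays, with differences of -0.25 (adjusted p = 0.637) and -0.22 (adjusted p = 0.636). In both, vehicle-labelled rat 2 was the highest of the 9 arrays, at 6.71 for Grm4 and 6.22 for Grm8. Grm6 had 4.13, 4.62 and 4.54 in model-labelled, 4.12, 4.39 and 4.44 in vehicle-labelled and 4.78, 4.66 and 4.52 in sham brains. Its vehicle-labelled arrays lay below all sham arrays, with a difference of -0.34 ± 0.16 (adjusted p = 0.549), or -0.30 ± 0.17 without the pair.

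The beta and gamma subunits of the GABA-A receptor and the GABA-B subunits overlapped between groups. Gabrb2 had 8.43, 9.01 and 8.91 in model-labelled, 9.07, 8.60 and 8.55 in vehicle-labelled and 8.66, 8.69 and 8.34 in sham brains. Gabrg1 had 7.49, 8.38 and 7.95 in model-labelled, 8.05, 8.16 and 7.46 in vehicle-labelled and 7.63, 8.16 and 9.03 in sham brains, where sham rat 5 was the highest. Gabbr1, which binds GABA, had 10.44, 10.16 and 10.44 in model-labelled, 10.61, 10.03 and 10.23 in vehicle-labelled and 10.30, 10.30 and 10.67 in sham brains. Every difference from sham of the beta, gamma and GABA-B subunits lay between -0.38 and 0.22. Gabbr2, which carries the signal to the G protein, had 9.20, 8.86 and 8.89 in model-labelled, 8.99, 9.06 and 9.16 in vehicle-labelled and 9.17, 9.02 and 8.59 in sham brains.

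Of the less common subunits, Gabrq had the largest negative difference of the 42 genes for the MCAO mean, and a single array made it. It had 3.36, 3.50 and 3.47 in model-labelled brains, 3.25, 3.54 and 3.32 in vehicle-labelled brains and 3.22, 3.52 and 6.49 in sham brains. The difference of -1.0 ± 0.59 (adjusted p = 0.579) rests on sham rat 5, which was far above the other 8 arrays, and became 0.07 without the pair. Gabre had the same outline, with 3.37, 3.39 and 3.62 in model-labelled, 3.39, 3.46 and 3.57 in vehicle-labelled and 3.37, 3.42 and 5.09 in sham brains, and its MCAO mean minus sham difference of -0.49 was 0.09 without the pair. Gabrr2 had 4.91, 4.63 and 4.63 in model-labelled brains, 5.75, 4.54 and 5.14 in vehicle-labelled brains and 4.28, 4.76 and 4.19 in sham brains. Vehicle-labelled rat 2 was highest here, and the vehicle-labelled difference from sham of 0.73 ± 0.27 (adjusted p = 0.437) became 0.32 without the pair. Gabrr1 was likewise highest in vehicle-labelled rat 2, at 4.83, against 3.64 to 3.98 in the other 8 arrays. Gabrp and Gabrr3 spanned 3.17 to 4.04 and 2.69 to 3.33.

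**Figure D3:**
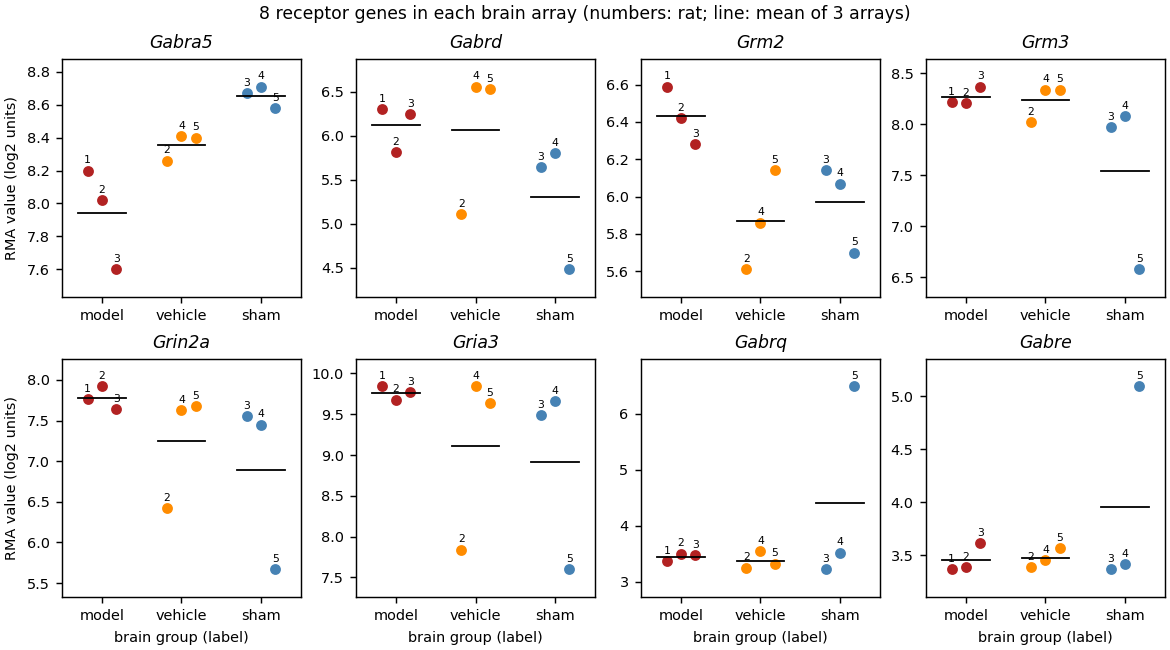
Values (RMA, log2 units on the y axis) of 8 receptor genes in the 9 brain arrays, by group on the x axis, with the rat's number at each point and a line at the mean of 3 arrays. Gabra5 falls into 3 groups that do not overlap, Grm2 is highest in the model-labelled arrays, and in Gabrd, Grin2a and Gria3 sham rat 5 and vehicle-labelled rat 2 lie below the others of their group, while Gabrq and Gabre are high in sham rat 5 alone.

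The pair of arrays set much of the spread of these genes. Vehicle-labelled rat 2 was the highest or lowest of the 9 brain arrays in 16 of the 42 genes, or 38.1%, and sham rat 5 in 22, or 52.4%. Over all genes those shares were 29.4% for vehicle-labelled rat 2 and 35.7% for sham rat 5. Vehicle-labelled rat 2 differed by more than 0.5 from the mean of its group-mates in 18 genes and sham rat 5 in 22, which is 42.9% and 52.4%, against 16% and 17% of all genes. The next highest share for a brain array was 35.7%, in sham rat 4, whose group-mates include sham rat 5. Without the pair the median residual SD was 0.195 over the 42 genes, against 0.355 with all 9 arrays, and the medians over all genes were 0.155 and 0.185.

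Both arrays deviated in the same direction in 31 of the 42 genes, or 73.8%, against 62.4% of all genes. In 7 genes both were more than 0.5 below the rest of their groups. Gria3 deviated by -1.90 in vehicle-labelled rat 2 and -1.98 in sham rat 5, Grin2a by -1.24 and -1.84, Grin2b by -1.27 and -1.39 and Gabrd by -1.44 and -1.24, and the other 3 were Gabra4, Gria2 and Grin1. In 3 genes both were more than 0.5 above: Grik1 by 1.02 and 1.46, Grin2d by 1.22 and 0.71, and Grin3a, an NMDA subunit that lowers calcium entry, by 0.61 and 0.95. Grin2c, an NMDA subunit of cerebellum and thalamus, was the 1 gene past 0.5 in opposite directions, at 0.68 in vehicle-labelled rat 2 and -1.06 in sham rat 5. Gabrq, Gabre and Grm3 deviated by only -0.18, -0.12 and -0.32 in vehicle-labelled rat 2 but by 3.12, 1.70 and -1.45 in sham rat 5. Besides the cortical markers given above, other lists moved with the pair. The mean of 29 postsynaptic scaffold and kinase genes was -0.36 in vehicle-labelled rat 2 and -0.68 in sham rat 5, against 0.04 to 0.24 in the other 7 brain arrays. That of 13 auxiliary subunits was -0.45 and -0.50, against 0.02 to 0.27. The mean of 4 glycine receptor genes was 1.38 and 1.40, against -0.79 to -0.10. Among these, Glra1, Glra2 and Glra3 were above their group-mates in both arrays, whereas Glrb had 8.36 in vehicle-labelled rat 2, against 8.37 and 8.49 in its group-mates, and 8.04 in sham rat 5, against 8.34 and 8.43. The part of these lists in the receptor values was not tested.

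**Figure D4:**
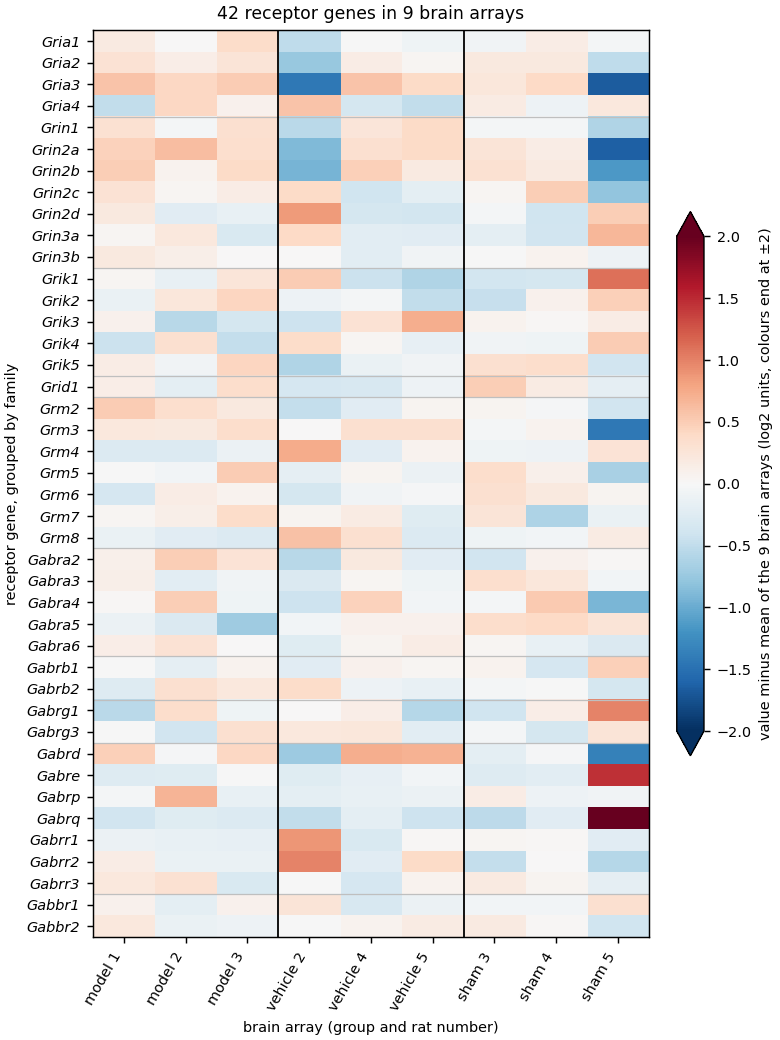
Each receptor gene (y axis, by family) in each of the 9 brain arrays (x axis, by group), coloured by its value minus its mean over the 9 arrays in log2 units. The strongest colours stand in the columns of vehicle 2 and sham 5, blue for Gria3, Grin2a, Grin2b and Gabrd in both and red for Gabrq and Gabre in sham 5.

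**Figure D5:**
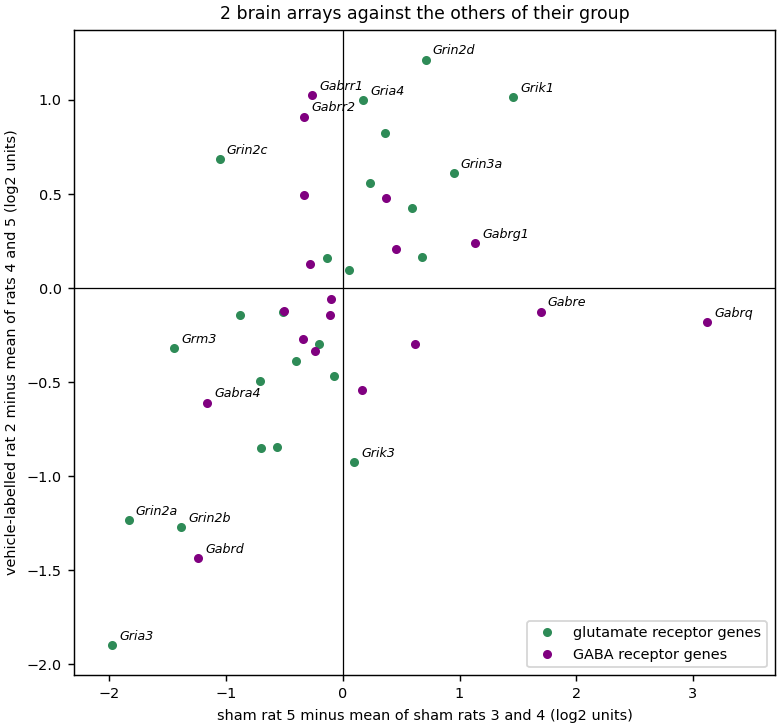
Deviation of vehicle-labelled rat 2 from the mean of rats 4 and 5 (y axis) against that of sham rat 5 from the mean of rats 3 and 4 (x axis), in log2 units, for each receptor gene, glutamate receptor genes in green and GABA receptor genes in purple. Of the 42 genes 31 lie in the quadrants of equal sign, with Gria3 at the lower left, while Gabrq and Gabre are high in sham rat 5 only.

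Leaving out the pair left 3 model-labelled, 2 vehicle-labelled and 2 sham brain arrays, and again no receptor gene was called between brain groups. The pair was chosen from the values of these arrays, so p-values without it are descriptive. The counts were 0 of 42 for the MCAO mean against sham, beside 2.19% of all genes, 0 for model-labelled against sham, beside 2.24%, 0 for vehicle-labelled against sham, beside 1.54%, and 0 for vehicle-labelled against model-labelled, beside 0.434%. Unadjusted p under 0.05 were found in 7, 6, 6 and 6 genes, again without the share of all genes beside them. The 95% interval now lay within 1 log2 unit of 0 on both sides for 42, 41, 40 and 41 genes. Gabra5 lay 0.75 below sham in model-labelled brains (adjusted p = 0.0520), and Gabrd, as given above, 0.82 above sham in vehicle-labelled brains. Grin2c was 0.56 ± 0.17 below sham in vehicle-labelled brains (adjusted p = 0.175).

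The mean of the oligodendrocyte markers also separated the operated groups, though this was not tested. The mean of 12 such markers, set against its average over the brain arrays, was -0.82, -1.23 and 0.10 in model-labelled brains, 1.08, 0.27 and 0.49 in vehicle-labelled brains and 0.09, -0.34 and 0.35 in sham brains. All vehicle-labelled arrays lay above all model-labelled ones in this mean, though the groups overlapped in single markers such as Mbp and Mag. Among the receptor genes the vehicle-labelled arrays lay above the model-labelled ones for Gabra5 and below them for Grm2, Gria1 and Grik5. These 4 genes are 9.52% of the 42, against 21.5% of all genes whose groups did not overlap. Grik5 was apart by a small margin, 7.35 against 7.36. The part of this in the receptor genes was not tested.

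In white blood cells and spleen no receptor gene was called in the comparisons run, which were the MCAO mean against sham and vehicle-labelled against model-labelled rats. For the MCAO mean against sham limma called 0 of 42 in white blood cells, beside 0.931% of all genes, with 4 at an unadjusted p under 0.05, and 0 in spleen, beside 0.0965%, with 2. For vehicle-labelled against model-labelled rats it called 0 in white blood cells, beside 1.56%, with 4 at an unadjusted p under 0.05, and 0 in spleen, beside 0%, with 1. The nearest to a call was Gabbr1 in white blood cells, with 6.64, 6.51 and 6.71 in the vehicle-labelled group, 7.22, 6.98 and 7.13 in the model-labelled group and 6.85, 6.81 and 6.59 in the sham group. Model-labelled arrays lay above all others, and the vehicle-labelled minus model-labelled difference was -0.49 ± 0.12 (adjusted p = 0.0668). Gria3 differed by -0.40 ± 0.15 between vehicle-labelled and model-labelled spleens (adjusted p = 0.279), and the same gene by 0.29 ± 0.12 in white blood cells (adjusted p = 0.364).

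Whether the effect of MCAO in brain differed from that in the other tissues was tested directly. Against white blood cells 0 of 42 genes were called, beside 0.896% of all genes, with 5 at an unadjusted p under 0.05, and against spleen 0, beside 0.641%, with 4. Gabra5 had the smallest p against spleen, with an MCAO effect of -0.51 in brain and 0.09 in spleen, a difference of -0.59 ± 0.16 (adjusted p = 0.128). Without the deviating pair 1 gene was called against white blood cells, beside 1.44% of all genes, and 0 against spleen, beside 1.08%. That gene was Gabrd, with an MCAO effect of 0.61 in brain and -0.17 in white blood cells, a difference of 0.78 ± 0.20 (adjusted p = 0.0426). With all arrays the same difference was 0.96 ± 0.36 (adjusted p = 0.282). These fits shared a single spread per gene between the tissues and had no rat block. With all arrays Gabrd varied more in sham brain (SD 0.72) than in sham white blood cells (SD 0.21). The standard error of 0.36 therefore understates the spread in brain. The call without the pair rests on leaving out arrays chosen from their values.

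Genes that make, move and anchor the transmitters and their receptors were examined as 5 lists beside the receptors. In sham brain against sham white blood cells, 8 of 8 genes of glutamate and GABA synthesis and breakdown were called higher, 12 of 16 transporters, 12 of 13 auxiliary subunits, 24 of 29 postsynaptic scaffold and kinase genes and 3 of 4 glycine receptor genes, beside 28% of all genes. Between the brain groups, 0 genes of the 5 lists were called in the 4 comparisons with all 9 arrays. The smallest p belonged to Slc1a4, a neutral amino acid transporter, and Arc, an activity-induced gene that draws AMPA receptors off the membrane. Slc1a4 was 1.06 ± 0.22 above sham in model-labelled brains (adjusted p = 0.0600). Arc had 10.44, 9.64 and 9.90 in model-labelled brains, 7.30, 8.95 and 8.13 in vehicle-labelled brains and 7.61, 7.64 and 4.62 in sham brains, and model-labelled brains were 3.37 ± 0.74 above sham (adjusted p = 0.0731). The model-labelled arrays stood above all others, and sham rat 5 was far below its group.

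Without the pair some of these genes were called. The pair was chosen after the brain values were seen, and for Arc it held the lowest array of the vehicle-labelled and of the sham group. Leaving it out narrows the spread by that choice, so these calls are descriptive. Arc rose by 2.37 ± 0.26 in model-labelled brains (adjusted p = 0.00112) and by 1.64 for the MCAO mean (adjusted p = 0.00644). Slc1a4 rose by 1.14 in model-labelled brains (adjusted p = 0.0197). Slc6a13, a GABA transporter of the meninges and vessels, fell by 0.87 for the MCAO mean (adjusted p = 0.00391), with -0.60 in the model-labelled and -1.13 in the vehicle-labelled group, both called. Shank2, a scaffold of glutamate synapses, was 0.70 lower than sham in vehicle-labelled brains (adjusted p = 0.0482), and Slc38a3, a glutamine transporter, 0.75 lower in vehicle-labelled than in model-labelled brains (adjusted p = 0.0476). For Arc the MCAO effect differed between brain and white blood cells by 2.75 ± 0.61 with all arrays (adjusted p = 0.0212). That fit also shared the spread between the tissues, while Arc ran from 4.62 to 7.64 within sham brain. The receptor genes themselves gave no call in the same comparisons between brain groups.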

How the data were processed

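Total RNA was hybridized to Affymetrix rat Gene arrays, and the deposited table gives log2 values per probe that the authors made with RMA, per the submitters' processing notes, in a version not given there; the log2 scale was read from the values (1.53 to 13.49). The genome build is not given in the sources used here, and genes carry no positions. Of 27596 probes 15310 name 1 gene, 323 several and 11963 none; 15279 of the first matched a RefSeq gene table, which changed 0 symbols. For 527 genes with several probes the one with the highest mean was used.

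Groups and rat numbers came from the sample titles. Fits were made with limma (version 3.58.1, under R version 4.3.3), 2-sided, separately per tissue over 9 arrays with 6 residual degrees of freedom and moderated by eBayes, with Benjamini-Hochberg adjustment within each contrast over 14506 genes; tissue and interaction contrasts used all 27 arrays in 1 fit (18 residual degrees of freedom). On simulated data, the fit of model minus sham in brain recovered 0% of 200 genes changed by 0.5 log2 units, 76.5% of those changed by 1 and 98% of those changed by 2 (14506 genes). The 200 genes were drawn from all genes, with noise independent between arrays. The median residual SD in brain was 0.185 over all genes and 0.355 over the 42 receptor genes. These shares therefore do not give the recovery for the receptor genes, which was not simulated.

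The members and lists were chosen with earlier results of these data known. Named were members called in brain, per brain contrast the 3 with the smallest p and the 4 largest differences each way, per tissue contrast the 6 largest and those not called higher in brain, the most variable of each family and core subunits fixed by role, and of the list genes those called in brain and otherwise the smallest p. Grik5, Grin2c and Grin3a fall outside this and were named after their values were seen. Of 221 list symbols 183 were measured.

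Alternatives were all 27 arrays in the fit, quantile normalization, median centring, a filter at the 40th percentile, the mean of a gene's probes, a trended robust prior, array weights, replicate blocks, an adjusted p under 0.10 and leaving out arrays. Across tissues, deviations of the same rat correlated with a median r of 0.133 (27 pairs, -0.058 to 0.517, 15 above 0.1), against -0.048 for different rats of a group (54 pairs, 2 above 0.1), and the link between tissues rests on the titles. No sequences are shown.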

Additional observations from a re-analysis of the deposited data

How the results depend on the processing

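Of 600 values recomputed under alternatives, 572 stayed the same. For single genes this meant the same direction and side of the threshold, and for counts and untested medians a value within a tolerance. Only single genes could be labelled reversed, and 0 were. Counts and medians made up 368 of the 600. A median could change sign within its tolerance, as for the MCAO mean against sham, from 0.0025 to -0.027 with quantile normalization. The count of 0 receptor genes became 1 for the MCAO mean against sham with 27 arrays in the fit and with array weights, and 1 for model-labelled against sham with 27 arrays, median centring, array weights or an adjusted p under 0.10; each time the gene was Gabra5. It became 1 between vehicle-labelled and model-labelled brains with 27 arrays (Grm2, adjusted p = 0.0455), 1 between vehicle-labelled and model-labelled white blood cells with array weights or an adjusted p under 0.10 (Gabbr1), 1 for the interaction with spleen with array weights, and 1 for the interaction with white blood cells without the pair and without vehicle-labelled rat 2 (0 to 1 when leaving out each array). The median of model-labelled against sham was 0.0033 with median centring, 0.14 with the filter at the 40th percentile (31 members left) and -0.001 with the replicate block of number, and ran from 0.055 to 0.127 when leaving out each array. The median of vehicle-labelled against model-labelled was -0.023 with median centring. With the filter over all arrays only 12 of the 42 genes were tested in the sham tissue comparisons, and 12 were called in each. A gene low in white blood cells and spleen passed that filter only through its brain values. These calls were therefore largely fixed by the filter and add no support.

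Same numbers in different brain groups are different rats: 4 such pairs of arrays correlated in their deviations with r between -0.474 and 0.377, 1 above 0.1. With the replicate block of number limma called 0 of 14506 genes in model-labelled against sham brains, and Gabra5 had an adjusted p of 0.474 there. With 3 arrays a group, changes of 0.5 log2 units were rarely recoverable in brain, so an uncalled receptor gene may still differ by that much. There were no detection calls, no batch labels, and no statement of joint normalization of the tissues.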
